A study of Mus musculus with 24 samples.

Results

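A set of 8 genes encodes the carriers that take amino acids and small peptides across the luminal, brush-border face of the enterocyte, and their messenger RNA was followed along the jejunal villus of the mouse. The members were taken by symbol from the deposited count table: Slc15a1, Slc6a19, Slc6a20a, Slc7a9, Slc3a1, Slc7a15, Slc36a1 and Slc1a1. They are 8 of 17811 genes in the table, and all 8 were among the 9328 genes that passed the filter on low counts. Of the 8 transcripts, 6 were higher toward the tip of the villus by slope, where 22.1% of all tested genes rose and 22.8% fell. Slc6a20a did not pass the test of a trend. Slc1a1 was lower by slope, but this call was lost without mouse 1 or without mouse 4. The difference of Slc1a1 between tip and bottom was not called. The rises lay in the lower part of the villus. In the middle zone V4, 6 members were higher than at the bottom V1, where 19% of all tested genes were higher and 17.5% lower. Between the tip V6 and V4 no member was called, and only 0.45% of all genes were, so that absence is near the background.

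The tissue was jejunum of 4 male C57BL/6 mice aged 10 weeks on regular chow, and the labels name no genetic change and no treatment. Epithelial cells were released with EDTA, stained for 2 surface proteins, CD73 and CD26, and separated by flow cytometry into 6 zones per mouse. The zones are V1 (most bottom), V2 (bottom), V3 (bottom-middle), V4 (middle), V5 (middle-tip) and V6 (tip), with 1 bulk library per zone and mouse, so 4 libraries per zone and 24 in all. Libraries were made by mcSCRB-seq, a 3′-end method in which each molecule carries a unique molecular identifier (UMI).

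The villus is a finger-like fold whose epithelial cells are born in the crypt, move up from its base and are shed at its tip. Dietary protein is cut by pancreatic enzymes and by peptidases anchored in the brush border, and the products enter the enterocyte either as free amino acids or as di- and tripeptides. Uptake is driven by sodium or proton gradients or by exchange for other amino acids, peptides are split further in the cytosol, and amino acids leave through a separate set of basolateral carriers.

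Each library held between 806541 and 2266261 UMIs, with a median of 1502948.5. Levels are TMM-scaled UMI counts relative to library size, in CPM, and given as mean ± SD of 4 mice. The labelled cell type was present in every zone: all 6 enterocyte markers (Alpi, Vil1, Fabp2, Apoa1, Sis and Lct) were detected, and together they held 57023 ± 12126 CPM in V6 and 11165 ± 5270 CPM in V1 (SD, n = 4). The libraries also held transcripts of other cells. Goblet cell markers (6 of 6 detected) summed to 10943 ± 2783 CPM in V6 and 70485 ± 24159 CPM in V1, and had already reached 11162 ± 4824 CPM in V3 (SD, n = 4). Paneth cell markers (5 of 5 detected) summed to 8422 ± 3509 CPM in V6 and 12621 ± 5713 CPM in V1, and leukocyte markers (6 of 6 detected) to 114 ± 23.96 CPM in V6 and 11.9 ± 9.03 CPM in V1 (SD, n = 4). The Paneth sum was highest in V5, at 18806 ± 15401 CPM, where the libraries ran from 4844 to 37501.5 CPM. Enteroendocrine markers (5 of 6 in the table) summed to 1709 ± 224 CPM in V1, 460 ± 251 CPM in V4 and 4020.1 ± 983 CPM in V6. Stromal and vessel markers stayed between a mean of 4.15 CPM in V3 and 9.98 CPM in V6. Mitochondrially encoded transcripts took between 7.13% and 9.72% of the UMIs in V6 libraries and between 2.59% and 4.57% in V1 libraries. In such bulk fractions, fewer cells of a type and less RNA per cell cannot be told apart. The transcript of the sort marker CD73, Nt5e, was higher in V5 than in V4 in mice 1, 2 and 3. In mouse 4 it had 20.9 CPM in V5 and 27.2 CPM in V4, so there the transcript did not follow the order of these zones. The sort was on the protein, and this difference between single libraries was not tested.

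The 8 genes lie on 8 different chromosomes (GRCm38, GENCODE M21), so none shares a neighbourhood with another. All are annotated as protein coding. Slc15a1 (ENSMUSG00000025557) spans 121459621 to 121505252 of chromosome 14 on the minus strand, and Slc6a19 (ENSMUSG00000021565) spans 73679745 to 73704865 of chromosome 13, also minus. Slc6a20a (ENSMUSG00000036814) spans 123634770 to 123678885 of chromosome 9 on the minus strand. The heterodimer partners are Slc7a9 (ENSMUSG00000030492), at 35448796 to 35466036 of chromosome 7 on the plus strand, and Slc3a1 (ENSMUSG00000024131), at 85028376 to 85064236 of chromosome 17, also plus. Slc7a15 (ENSMUSG00000020600) spans 8528483 to 8599066 of chromosome 12 on the minus strand. Slc36a1 (ENSMUSG00000020261) spans 55204350 to 55236330 of chromosome 11 and Slc1a1 (ENSMUSG00000024935) 28835049 to 28913960 of chromosome 19, both on the plus strand. The 3′ end of Slc3a1 overlaps Prepl on the opposite strand, to which the table gives 289 UMIs over all libraries against 4932 for Slc3a1. Slc1a1, with 1092 UMIs, overlaps 4430402I18Rik (152 UMIs) and the pseudogene Gm5822 (95 UMIs) on the opposite strand. How the counting treated strand in such overlaps is not stated. The close copy of Slc6a20a, Slc6a20b, had 7 UMIs in all, against 2895 for Slc6a20a.

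Promoter windows are shown for the members on which the comparisons turn: the steepest risers Slc6a19 and Slc7a15, the heterodimer partners Slc7a9 and Slc3a1, which rose to different degrees, and Slc1a1, which fell. Each window runs from 250 bases before to 50 bases after the RefSeq transcript start on GRCm38.p6, 5′ to 3′ on the strand of the gene. Capitals mark 3 motifs searched on both strands: CAAAGTCCA (HNF4 type), GTTAAT (an HNF1-type core) and TATAAA. The coordinates are chr13:73692587-73692886 (minus) for Slc6a19, chr12:8599017-8599316 (minus) for Slc7a15, chr7:35448842-35449141 (plus) for Slc7a9, chr17:85028097-85028396 (plus) for Slc3a1 and chr19:28834885-28835184 (plus) for Slc1a1. Slc7a9 and Slc7a15 have 2 RefSeq starts, of which the first listed is shown. The Slc6a19 window lies inside the GENCODE span of that gene, whose 5′ end on the minus strand is at 73704865. The RefSeq start used for Slc6a19 thus differs from the 5′ end of that span.
Slc6a19: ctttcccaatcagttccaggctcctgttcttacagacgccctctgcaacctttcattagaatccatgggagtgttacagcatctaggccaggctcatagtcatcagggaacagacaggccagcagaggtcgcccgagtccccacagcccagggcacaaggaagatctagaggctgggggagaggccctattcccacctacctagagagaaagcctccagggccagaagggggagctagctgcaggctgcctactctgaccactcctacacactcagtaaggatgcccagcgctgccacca
Slc7a15: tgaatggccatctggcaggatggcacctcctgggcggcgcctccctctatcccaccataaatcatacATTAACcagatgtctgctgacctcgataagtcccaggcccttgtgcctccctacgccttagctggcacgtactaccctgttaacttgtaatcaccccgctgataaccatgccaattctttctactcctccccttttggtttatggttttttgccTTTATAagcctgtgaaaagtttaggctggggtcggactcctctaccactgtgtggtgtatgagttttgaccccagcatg
Slc7a9: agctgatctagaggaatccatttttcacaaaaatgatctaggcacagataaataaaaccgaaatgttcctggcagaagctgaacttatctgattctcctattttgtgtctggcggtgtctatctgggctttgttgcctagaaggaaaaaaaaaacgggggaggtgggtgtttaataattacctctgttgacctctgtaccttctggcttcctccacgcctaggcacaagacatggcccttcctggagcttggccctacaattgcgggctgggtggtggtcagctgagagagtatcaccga
Slc3a1: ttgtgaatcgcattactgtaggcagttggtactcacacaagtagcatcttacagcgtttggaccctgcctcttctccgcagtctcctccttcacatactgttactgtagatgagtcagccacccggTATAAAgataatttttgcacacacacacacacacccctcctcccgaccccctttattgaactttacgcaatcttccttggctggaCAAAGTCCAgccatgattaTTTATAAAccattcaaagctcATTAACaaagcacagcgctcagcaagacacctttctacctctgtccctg
Slc1a1: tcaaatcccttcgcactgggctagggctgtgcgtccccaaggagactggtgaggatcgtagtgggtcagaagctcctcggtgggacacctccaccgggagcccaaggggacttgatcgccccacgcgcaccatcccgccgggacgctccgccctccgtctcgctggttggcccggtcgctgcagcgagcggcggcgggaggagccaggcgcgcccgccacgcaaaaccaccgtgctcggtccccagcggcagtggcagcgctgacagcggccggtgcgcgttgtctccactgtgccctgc
The HNF4-type motif was found in 0.475% of all 32851 mouse promoter windows of this length and in 1 of the 8 members, Slc3a1, at position -39 from the start. The HNF1-type motif was found in 7.1% of all windows and in 4 of the 8 members (Slc3a1, Slc7a15, Slc6a20a and Slc36a1). TATAAA was found in 13.6% of all windows and in 2 members. In Slc7a15 it lay at -29 on the strand opposite to the gene, so the window reads TTTATA there. In Slc3a1 it lay at 3 positions, of which the one at -18 on the gene's strand and the one at -20 on the other strand overlap. The base composition differed widely: 70.3% of the Slc1a1 window was G or C, against 46.3% for Slc3a1, 47% for Slc7a9, 50.7% for Slc7a15 and 57.3% for Slc6a19, and a median of 52.7% over all windows. A match is a run of letters and not a measured binding site. The share of members with a motif was not tested against the share of all windows.

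The comparison along the axis asked how steeply each transcript changed from bottom to tip. The slope is the log2 change per zone, with the 6 zones taken as equally spaced, and a gene was called at an adjusted p under 0.05 over all genes (edgeR quasi-likelihood test). Among the members, 6 of 8 rose and 1 fell. In the background, 22.1% of all tested genes rose and 22.8% fell, 44.9% in all. This even background depends on the scaling: with total UMIs as the scale, 13% of genes rose and 39.9% fell, and the members were again 6 up and 1 down. The median slope was 0.29 over the 8 members and -0.00465 over all genes tested. In 6 members the slope was positive within each of the 4 mice, and in Slc1a1 it was negative within each. With the mouse as a block, the counts were again 6 up and 1 down, against a background of 27.6% up and 27.8% down, 55.3% in all. Between the ends of the axis, V6 against V1, 6 members were higher and 0 were lower, where 20.2% of all tested genes were higher and 18.6% lower, 38.8% in all. With total UMIs as the scale the shares were 12.3% and 33.3%, and 6 members were higher and 1 lower. The same 6 had every V6 library above every V1 library, as did 17.9% of all genes. The median of V6 minus V1 was 1.60 over the members and -7.1e-04 over all genes tested. The marker sums given above moved along the same axis: by slope, 5 of 6 enterocyte markers rose, 6 of 6 goblet markers fell, 3 of 5 enteroendocrine markers rose and 1 fell, 2 of 2 tested leukocyte markers rose, and 0 of 5 Paneth markers were called. With goblet, Paneth and leukocyte markers and mitochondrially encoded genes removed before scaling, the 6 rises and the fall were called again. Of the 9318 genes tested there, 21.9% rose and 22.9% fell. Other transcripts of those cells stayed in the libraries, so this setting bears on the scaling alone. The part of cell mixture in these values was not tested.

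**Figure D1:**
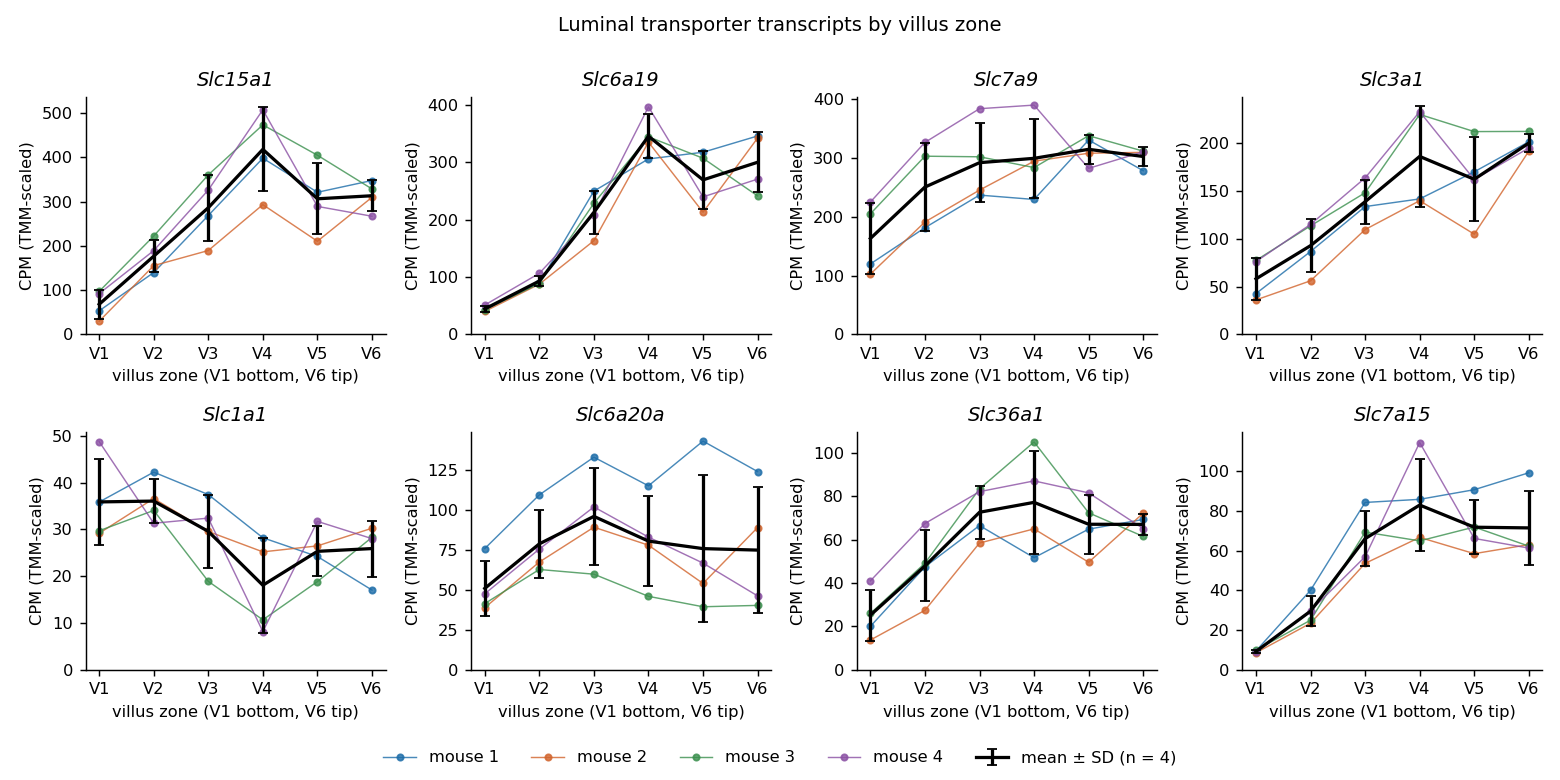
TMM-scaled CPM (y axis, each panel with its own scale from 0) of the 8 transporter transcripts in zones V1 (bottom) to V6 (tip). Coloured lines join the libraries of a mouse, and the black line is the mean ± SD of 4 mice. Most curves climb over the lower zones, and the means of Slc15a1 and Slc6a19 are lower in V5 than in V4. Slc6a20a runs highest in mouse 1 in all 6 zones, and the mean of Slc1a1 is lowest in V4.

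**Figure D2:**
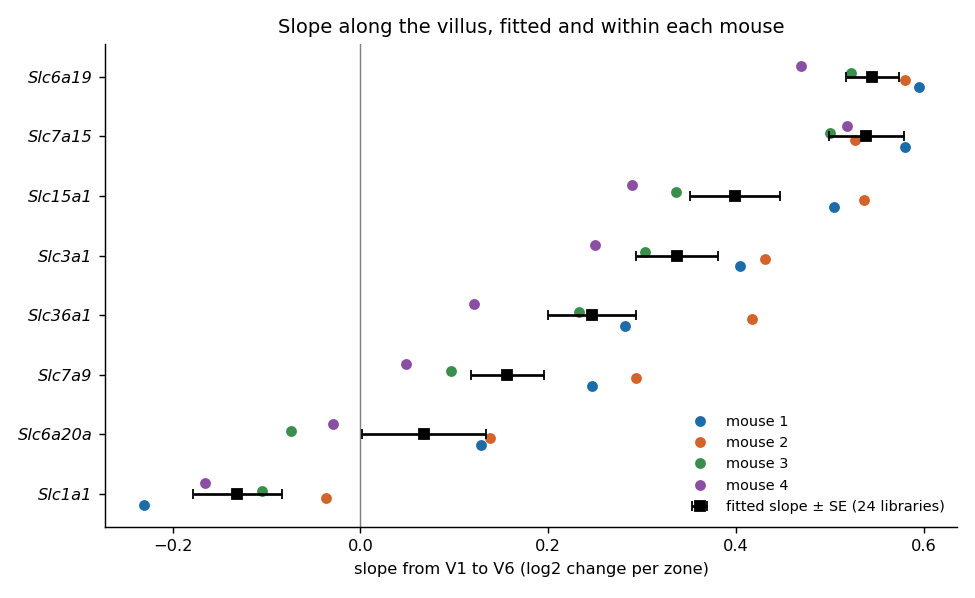
Slope of each transporter transcript in log2 change per zone (x axis). Black squares are fitted slopes ± SE over 24 libraries, and coloured points are slopes within each mouse. All 4 points lie above 0 for 6 genes and below 0 for Slc1a1, while those of Slc6a20a lie on both sides.

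Slc15a1, the proton-coupled carrier of di- and tripeptides, had 348, 310, 329 and 267 CPM in V6 of mice 1 to 4, against 53.2, 29.7, 97.1 and 92.2 CPM in V1. Every V6 library was above every V1 library. Its highest mean was in the middle of the villus, 418 ± 95.1 CPM in V4, where the 4 mice had 398, 293, 474 and 508 CPM. The tip exceeded the bottom 4.61-fold (log2 2.20 ± 0.29, SE; edgeR adjusted p = 3.4e-06). Along all zones the slope was 0.40 ± 0.048 (edgeR adjusted p = 6.2e-07). V1 stood apart from V2 with no overlap of the libraries (176.8 ± 36.8 CPM in V2 and 68.1 ± 32.2 CPM in V1), whereas each of the other neighbours in the order of zone means overlapped. Of all tested genes, 4.1% were higher in V2 than in V1 without overlap.

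Slc6a19 is the main sodium-dependent carrier of neutral amino acids of the brush border. It had 346, 342, 241 and 270.4 CPM in V6 of mice 1 to 4, against 42.7, 40.0, 43.3 and 51.1 CPM in V1. The mice were close to each other at the bottom and spread out at the tip. Its slope was 0.55 ± 0.028 (edgeR adjusted p = 2.5e-12), next to that of Slc7a15, and 98.8% of all tested genes had a lower slope. V6 exceeded V1 6.76-fold (log2 2.76 ± 0.17; edgeR adjusted p = 1.3e-10). The zone means were 44.3, 92.9, 212, 345, 269 and 299.8 CPM from V1 to V6, and V1, V2 and V3 did not overlap one another. Without overlap, 4.1% of all tested genes were higher in V2 than in V1 and 2.69% higher in V3 than in V2.

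Slc6a20a carries proline and other imino acids. In V6 it had 124, 89.0, 40.3 and 46.3 CPM in mice 1 to 4, against 75.9, 38.9, 41.4 and 47.6 CPM in V1. Mice 1 and 2 were higher at the tip, mice 3 and 4 slightly lower, and the 2 zones overlapped. The slope was 0.068 ± 0.066 (95% interval -0.069 to 0.20; edgeR adjusted p = 0.417) and reached -0.00303 when libraries were scaled by total UMIs alone. V6 minus V1 was 0.55 ± 0.39 in log2 (95% interval -0.26 to 1.37; edgeR adjusted p = 0.272). Mouse differences were large for this gene: mouse 1 was the highest in 6 of 6 zones, with a mean over zones of 117 CPM, against 69.4, 48.3 and 70.2 CPM in mice 2, 3 and 4. With the mouse as a block, V6 minus V1 was 0.51 ± 0.18 and passed the test (edgeR adjusted p = 0.0159), where 26.7% of all genes were called higher and 51.4% in all, and V4 minus V1 was 0.64 ± 0.18 (edgeR adjusted p = 0.00341), while the slope was 0.055 ± 0.029 and did not (edgeR adjusted p = 0.112). Its highest zone was V5, V3, V2 and V3 in mice 1 to 4.

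Slc7a9 and Slc3a1 encode the light and heavy chains of one carrier, which takes up cystine and dibasic amino acids in exchange for neutral ones. The heavy chain Slc3a1 is needed to bring the complex to the membrane. Slc7a9 had 278, 309, 311 and 310.2 CPM in V6 of mice 1 to 4, against 120, 102, 205 and 225 CPM in V1. Mice 3 and 4 began higher than mice 1 and 2, and all reached a like level at the tip. Its slope of 0.16 ± 0.039 (edgeR adjusted p = 0.00231) was the smallest of the 6 that rose, and V6 exceeded V1 1.86-fold (log2 0.89 ± 0.23; edgeR adjusted p = 0.00402). With total UMIs as the scale the slope was 0.093 and V6 minus V1 was 0.57, both called (edgeR adjusted p = 0.0367 and 0.0358). Over V2 to V6 alone the slope was 0.068 and not called (edgeR adjusted p = 0.301). Slc3a1 had 201, 192, 212 and 195 CPM in V6 of mice 1 to 4, against 42.7, 36.0, 77.3 and 76.1 CPM in V1. Its V6 libraries were tightly grouped (199.97 ± 9.11 CPM), and the V1 libraries split into mice 1 and 2 and mice 3 and 4. V6 exceeded V1 3.45-fold (log2 1.79 ± 0.26; edgeR adjusted p = 1.3e-05), with a slope of 0.34 ± 0.044 (edgeR adjusted p = 1.7e-06).

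Slc7a15 is a carrier of aromatic amino acids in the same family as Slc7a9. It had the largest fold of the 8 between tip and bottom, with 99.2, 63.0, 62.2 and 61.2 CPM in V6 of mice 1 to 4, against 9.49, 8.58, 9.90 and 8.92 CPM in V1. The V1 libraries rest on 15 to 18 UMIs each and lie far below all V6 libraries. V6 exceeded V1 7.71-fold (log2 2.95 ± 0.25; edgeR adjusted p = 6.9e-09), and the slope was 0.54 ± 0.040 (edgeR adjusted p = 4.2e-10). As for Slc6a19, V1, V2 and V3 did not overlap one another, beside the same 4.1% and 2.69% of all genes.

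Slc36a1 is a proton-coupled carrier of small neutral amino acids such as glycine and proline. It had 69.3, 72.2, 61.5 and 65.2 CPM in V6 of mice 1 to 4, against 20.0, 13.7, 26.0 and 41.0 CPM in V1. The tip libraries were close together and all above the bottom ones, among which mouse 4 was the highest. V6 exceeded V1 2.66-fold (log2 1.41 ± 0.28; edgeR adjusted p = 4.1e-04), and the slope was 0.25 ± 0.047 (edgeR adjusted p = 1.8e-04). Its slope was not called over V2 to V6 alone (0.088; edgeR adjusted p = 0.270) or over V3 to V6 alone (-0.053; 0.875).

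Slc1a1, the sodium-dependent carrier of glutamate and aspartate, went the other way. It had 17.0, 30.2, 28.3 and 28.0 CPM in V6 of mice 1 to 4, against 35.8, 29.2, 29.7 and 48.8 CPM in V1. These ranges overlapped, and V6 minus V1 was -0.48 ± 0.28 in log2 (95% interval -1.06 to 0.10; edgeR adjusted p = 0.182). Its lowest zone mean was in V4, with 28.2, 25.2, 10.7 and 8.17 CPM in mice 1 to 4, the last 2 from 13 and 6 UMIs. V4 was the lowest zone in mice 2, 3 and 4, while in mouse 1 it was V6. V4 minus V1 was -0.92 ± 0.29 (edgeR adjusted p = 0.0175), and the slope was -0.13 ± 0.048 (edgeR adjusted p = 0.0278). Both calls depended on single animals. The slope was -0.11 without mouse 1 (edgeR adjusted p = 0.139) and -0.12 without mouse 4 (0.0819), close to the full value but no longer called. It was -0.10 without the V1 library of mouse 4 (edgeR adjusted p = 0.0891) and -0.11 without the V6 library of mouse 1 (0.0839). V4 minus V1 lost it without mouse 3 (edgeR adjusted p = 0.0685) or mouse 4 (0.213), and without the V1 library of mouse 4 (0.0671), the V4 library of mouse 3 (0.0763) or the V4 library of mouse 4 (0.0622). Fitted on V4 and V1 alone it was -0.93 and also missed the threshold (edgeR adjusted p = 0.0544). With total UMIs as the scale, V6 minus V1 of Slc1a1 was -0.81 and called (edgeR adjusted p = 0.0323), beside a shift of the median of all genes to -0.34.

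The villus was then compared as a lower part, V4 against V1, and an upper part, V6 against V4. In the lower part 6 members were higher in V4 and 1 was lower, against 19% and 17.5% of all tested genes, 36.5% in all (11.3% and 32.2% with total UMIs as the scale, where 6 members were higher and 1 lower). Slc7a15 exceeded V1 8.85-fold in V4, Slc6a19 7.77-fold, Slc15a1 6.15-fold, Slc3a1 3.20-fold, Slc36a1 3.05-fold and Slc7a9 1.83-fold. With the mouse as a block all 8 were called, 7 higher with Slc6a20a among them and 1 lower, against 25.6% of all genes higher and 50.4% in all. In the upper part 0 of 8 members were called, where 0.45% of all genes were higher in V6 and 0% lower. At an unadjusted p under 0.05, edgeR, DESeq2 and limma-voom also had 0 members each, beside 407, 367 and 389 of the 9328 genes. With the mouse as a block 1 member passed this, beside 774 genes. At the adjusted threshold 0 members were called with the block, against 1.35% of all genes higher and 1.42% in all. The intervals of the fit without the block leave room for moderate changes, and their widths include the spread between mice. V6 minus V4 was -0.41 for Slc15a1 (95% interval -0.98 to 0.15), -0.20 for Slc6a19 (-0.52 to 0.12), 0.11 for Slc3a1 (-0.41 to 0.63) and 0.44 for Slc1a1 (-0.18 to 1.06). All 8 members had overlapping libraries in V6 and V4, as nearly all genes did: 2.06% of genes were higher and 0.686% lower without overlap. Over V3 to V6 alone, a choice made after seeing the data, the slope was called for 0 members, and with the mouse as a block for 1, Slc3a1, where 2.59% and 7.66% of the 8643 genes tested were called, so both counts lie near the background. The enteroendocrine marker sum also moved in the upper part, with 4020.1 ± 983 CPM in V6 and 460 ± 251 CPM in V4 (SD, n = 4), and its part in these values was not tested.

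**Figure D3:**
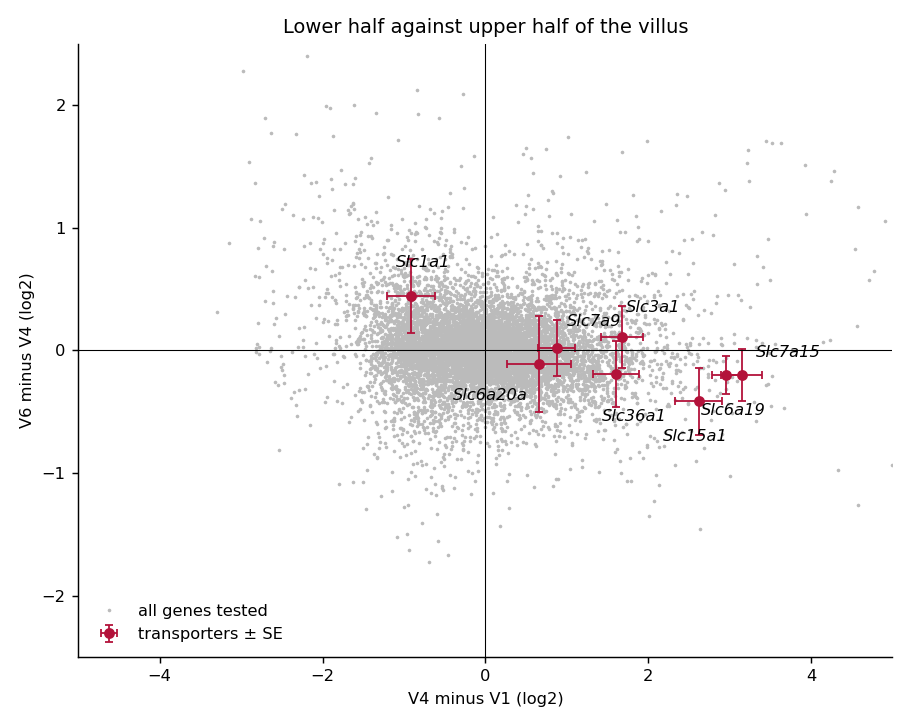
Difference V4 minus V1 (x axis, log2) against V6 minus V4 (y axis, log2). Grey points are all genes tested, apart from 36 outside the axes, and red points are the 8 transporters with SE bars on both axes. Of the transporters, 7 lie to the right of 0 and Slc1a1 to the left, and all 8 lie between -0.41 and 0.44 on the vertical axis.

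Between neighbouring zones the rises came early. From V1 to V2, 3 members were called: Slc7a15 (log2 1.68 ± 0.25; edgeR adjusted p = 0.0012), Slc15a1 (1.38 ± 0.28; 0.0117) and Slc6a19 (1.07 ± 0.17; 0.0012), where 1.43% of all genes rose and 0.0858% fell, 1.51% in all. With the mouse as a block this became 7 members, all but Slc1a1, against 9.2% of all genes that rose and 5.72% that fell, 14.9% in all. From V2 to V3, Slc6a19 (1.19 ± 0.16; edgeR adjusted p = 9.5e-04) and Slc7a15 (1.15 ± 0.22; 0.0208) were called again, where 0.172% of all genes rose and 0.118% fell, 0.289% in all (0.161% and 0.214% with total UMIs as the scale). With the block, Slc15a1, Slc3a1 and Slc36a1 joined them, making 5, against 3% of all genes that rose, 4.79% in all. From V3 to V4, 0 members and 0.0643% of all genes passed. At an unadjusted p under 0.05 there were 2 members in edgeR, beside 679 of the 9328 genes, and 3 in DESeq2, beside 615. DESeq2 called 1 member, beside 0.59% of all genes. Slc6a19 was the nearest (0.70 ± 0.16; edgeR adjusted p = 0.0931). With the block it was called (0.70 ± 0.14; edgeR adjusted p = 0.0025), as the 1 member beside 1.93% of all genes that rose, 2.12% in all. The steps V5 minus V4 and V6 minus V5 gave 0 called members with or without the block, where 0% and 0.268% of all genes were called without it and 0% and 1.5% with it. At an unadjusted p under 0.05, edgeR and DESeq2 each had 1 member in V5 minus V4 and 0 in V6 minus V5. The member in edgeR was Slc6a19, which was lower in V5 (log2 -0.35 ± 0.16; edgeR unadjusted p = 0.0327). Of the 9328 genes, 171 in edgeR and 132 in DESeq2 passed this for V5 minus V4, and 457 and 404 for V6 minus V5. The goblet marker sum was at 35490 ± 13961 CPM in V2, against 70485 ± 24159 CPM in V1, so it dropped over the same lower steps, and its part in these values was not tested. Without mouse 4, 0 members and 0 genes were called from V1 to V2, while the log2 values stayed at 1.67 for Slc7a15, 1.53 for Slc15a1 and 1.08 for Slc6a19. The call of Slc15a1 was also lost without mouse 1 (edgeR adjusted p = 0.178), the V1 library of mouse 1 (0.0599) or the V2 library of mouse 3 (0.0536). From V2 to V3, leaving out mouse 3 left 0 members and 0 genes, with Slc6a19 at 1.14 and Slc7a15 at 1.06, and leaving out mouse 2 or mouse 4 left 1, as did leaving out the V2 library of mouse 2, 3 or 4 or the V3 library of mouse 1 or 3.

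The 4 mice differed in where the transcripts peaked. Slc6a19, Slc3a1 and Slc36a1 each had their highest zone at V6 in mice 1 and 2 and at V4 in mice 3 and 4. For Slc6a19 the peaks were 346 and 342 CPM in V6 of mice 1 and 2 and 344 and 396 CPM in V4 of mice 3 and 4. Slc15a1 peaked at V4 in mice 1, 3 and 4 and at V6 in mouse 2. V6 minus V4 of Slc6a19 was accordingly 0.18 and 0.030 in mice 1 and 2 and -0.51 and -0.55 in mice 3 and 4. The V4 library of mouse 4 was the shallowest of all, at 806541 UMIs. That of mouse 3 had the highest share of mitochondrially encoded UMIs, 13.2%. Whether these bear on the V4 peaks was not tested. The fold from the lowest to the highest zone within a mouse was 7.75 to 8.54 for Slc6a19, a narrow range, against 4.88 to 10.4 for Slc15a1 and 7.26 to 12.8 for Slc7a15. Mice 1 and 2 had a lower Slc15a1, Slc7a9, Slc3a1 and Slc36a1 in V1 than mice 3 and 4. Slopes of these 4 genes were steeper in mice 1 and 2 as well, for example 0.25 and 0.29 for Slc7a9 in mice 1 and 2, and 0.097 and 0.049 in mice 3 and 4. Mouse and the index read as a sequencing pool nearly coincide in these libraries, so the 2 cannot be told apart. The exception is the V1 library of mouse 2, which has the index of mouse 1. Mice 1 and 2 thus shared an index in V1 alone, the zone where both were low in these 4 genes. The part of the index in this split was not tested.

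Ratios of 2 members within a library need no scaling between libraries, so they show directly which transcripts rose more than others. A UMI ratio is not the ratio of the proteins. Slopes of the log2 ratio were compared for all 28 pairs by an exact two-sided permutation of the zones within each mouse, adjusted over the 28 pairs. Of these, 25 differed. The share over pairs of other genes was not computed, and the 28 pairs reuse the same 8 genes, so the count is not particular to these carriers. Over V2 to V6 alone 17 did: 9 of the 25 lost their call, among them Slc15a1 over Slc7a9 (adjusted p = 0.125 by the exact permutation test), Slc6a19 over Slc3a1 (0.0580) and Slc3a1 over Slc7a15 (0.788), and 1 pair gained one. So part of the differences rest on V1. Slc7a9 over Slc3a1, the 2 chains of one carrier, had a ratio of 1.38, 1.61, 1.47 and 1.59 in V6 of mice 1 to 4, against 2.80, 2.84, 2.65 and 2.95 in V1. The 4 V6 values were all below the 4 V1 values. The slope of this log2 ratio was -0.18 ± 0.034 per zone (SD over 4 mice, negative in 4 of 4; exact permutation adjusted p = 6.3e-05). The mean ratio was 1.66 ± 0.36 in V4 and 2.05 ± 0.61 in V5 (SD, n = 4), so the fall was not even from zone to zone.

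Slc6a19 and Slc6a20a, both sodium-dependent carriers of one family, changed unequally. Slc6a19 over Slc6a20a stood at 2.78, 3.84, 5.98 and 5.85 in V6 of mice 1 to 4, against 0.563, 1.03, 1.04 and 1.08 in V1. The slope of the log2 ratio was 0.50 ± 0.068 (SD over 4 mice, positive in 4 of 4; exact permutation adjusted p = 1.1e-06). The other 3 pairs did not pass. Slc6a19 over Slc7a15 had a slope of 0.010 ± 0.043 (exact permutation adjusted p = 0.779), with a mean ratio of 4.30 ± 0.84 in V6 and 4.82 ± 0.62 in V1 (SD, n = 4). It dipped to 3.27 ± 0.70 in V2 and 3.24 ± 0.32 in V3, and it was the pair that gained a call over V2 to V6 alone, with a slope of 0.10 (exact permutation adjusted p = 0.0215). Slc15a1 over Slc3a1 had a slope of 0.070 ± 0.039 (exact permutation adjusted p = 0.178), and Slc1a1 over Slc6a20a one of -0.18 ± 0.14 (exact permutation adjusted p = 0.0528). This last pair passed with a pseudocount of 2 (exact permutation adjusted p = 0.0479), without mouse 3 (0.0394) and without mouse 4 (0.0265).

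**Figure D4:**
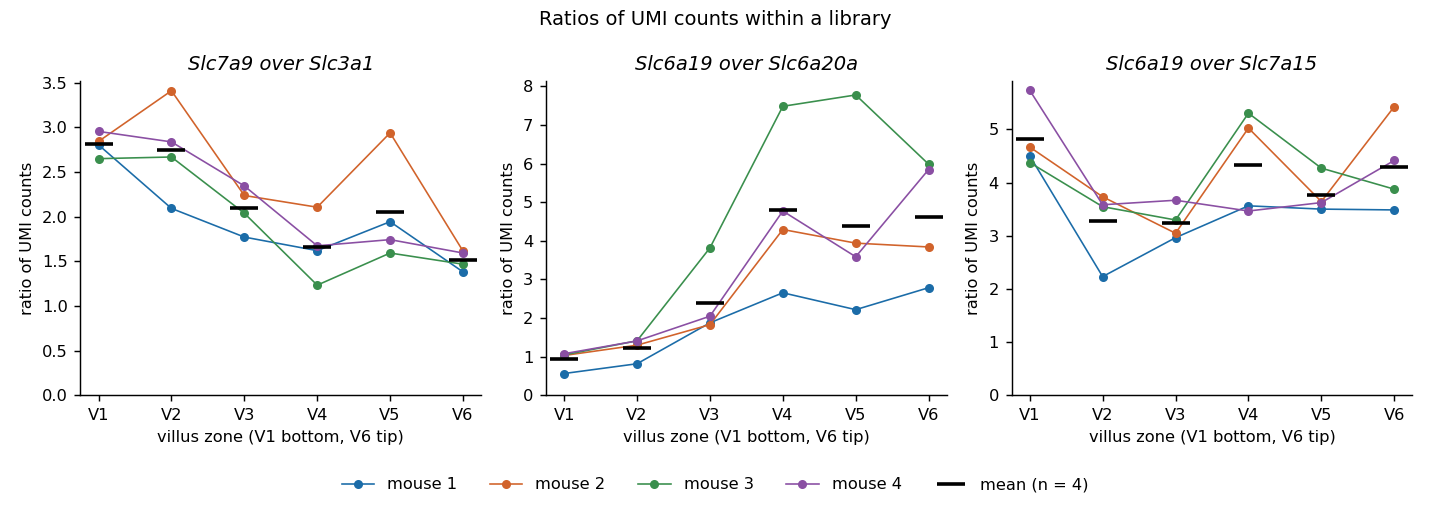
Ratio of the UMI counts of 2 transporters within each library (y axis, from 0) by villus zone V1 to V6 (x axis). Coloured lines join the libraries of a mouse, and black bars are means of 4 mice. Slc7a9 over Slc3a1 falls in every mouse, Slc6a19 over Slc6a20a climbs in every mouse, and Slc6a19 over Slc7a15 ends near where it began.

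The other genes of protein absorption are given from lists of known function. Of the brush-border peptidases, which make the peptides and amino acids that these carriers take up, 9 of 10 tested rose and 1 fell, with a median slope of 0.30, where 22.1% of all genes rose and 22.8% fell. Among them, neprilysin, Mme, had a slope of 0.44 ± 0.050, Ggt1 0.34 ± 0.029, Ace 0.33 ± 0.040 and Xpnpep2 0.26 ± 0.036 (edgeR adjusted p from 3.3e-09 to 4.9e-06). The one that fell was carboxypeptidase M (gene Cpm), at -0.36 ± 0.069 (edgeR adjusted p = 2.3e-04), with 7.20 ± 4.84 CPM in V6 and 23.0 ± 8.51 CPM in V1. Of the cytosolic peptidases, which split absorbed peptides, 4 of 7 rose and none fell (median slope 0.15), beside the same shares of all genes, and 5 rose with the mouse as a block, beside 27.6% of all genes. They were Lap3 (0.28 ± 0.032), Pepd (0.30 ± 0.053), Cndp2 (0.19 ± 0.034) and Xpnpep1 (0.15 ± 0.030), with edgeR adjusted p from 3.3e-07 to 3.7e-04.

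The scaffold genes Slc9a3r1 (slope 0.34 ± 0.027) and Pdzk1 (0.36 ± 0.049), whose products bind membrane carriers at the brush border, rose (edgeR adjusted p = 1.6e-09 and 3.2e-06). Arl6ip5, whose product binds the Slc1a1 carrier, had a slope of -0.048 and was not called (edgeR adjusted p = 0.543). Of the basolateral and general amino acid carriers, 3 of 7 tested rose and none fell (median slope 0.11), beside 22.1% and 22.8% of all genes: Slc7a7 (0.16 ± 0.034), Slc16a10 (0.19 ± 0.043) and Slc43a2 (0.17 ± 0.035), with edgeR adjusted p from 3.3e-04 to 9.8e-04. With the mouse as a block, 4 rose and 1, the sodium-coupled carrier Slc38a2, fell, beside 27.6% and 27.8% of all genes. Without the block the slope of Slc38a2 was -0.13 ± 0.053 (edgeR adjusted p = 0.0576). These medians stand beside -0.00465 for all genes tested. Whether one list differs from another was not tested.

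Of 5 other luminal amino acid carriers listed, 2 passed the filter. Slc1a5, a neutral amino acid exchanger, fell, with 9.80 ± 1.59 CPM in V6 and 39.7 ± 13.5 CPM in V1 (SD, n = 4; slope -0.31 ± 0.093, edgeR adjusted p = 0.0104). Slc6a6, the taurine carrier, had a slope of -0.016 (edgeR adjusted p = 0.786). Slc6a18 had 7 UMIs over all libraries. Among 10 transcription factors known from the intestinal epithelium, 2 rose and 1 fell (median slope 0.026), no larger a share than the 22.1% and 22.8% of all genes. They were Hnf4a at 0.15 ± 0.030 (edgeR adjusted p = 4.1e-04), Gata6 at 0.14 ± 0.035 (0.00243) and Cdx1 at -0.20 ± 0.047 (0.0015). Hnf4g had 0.088 ± 0.066 and was not called (edgeR adjusted p = 0.291).

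**Figure D5:**
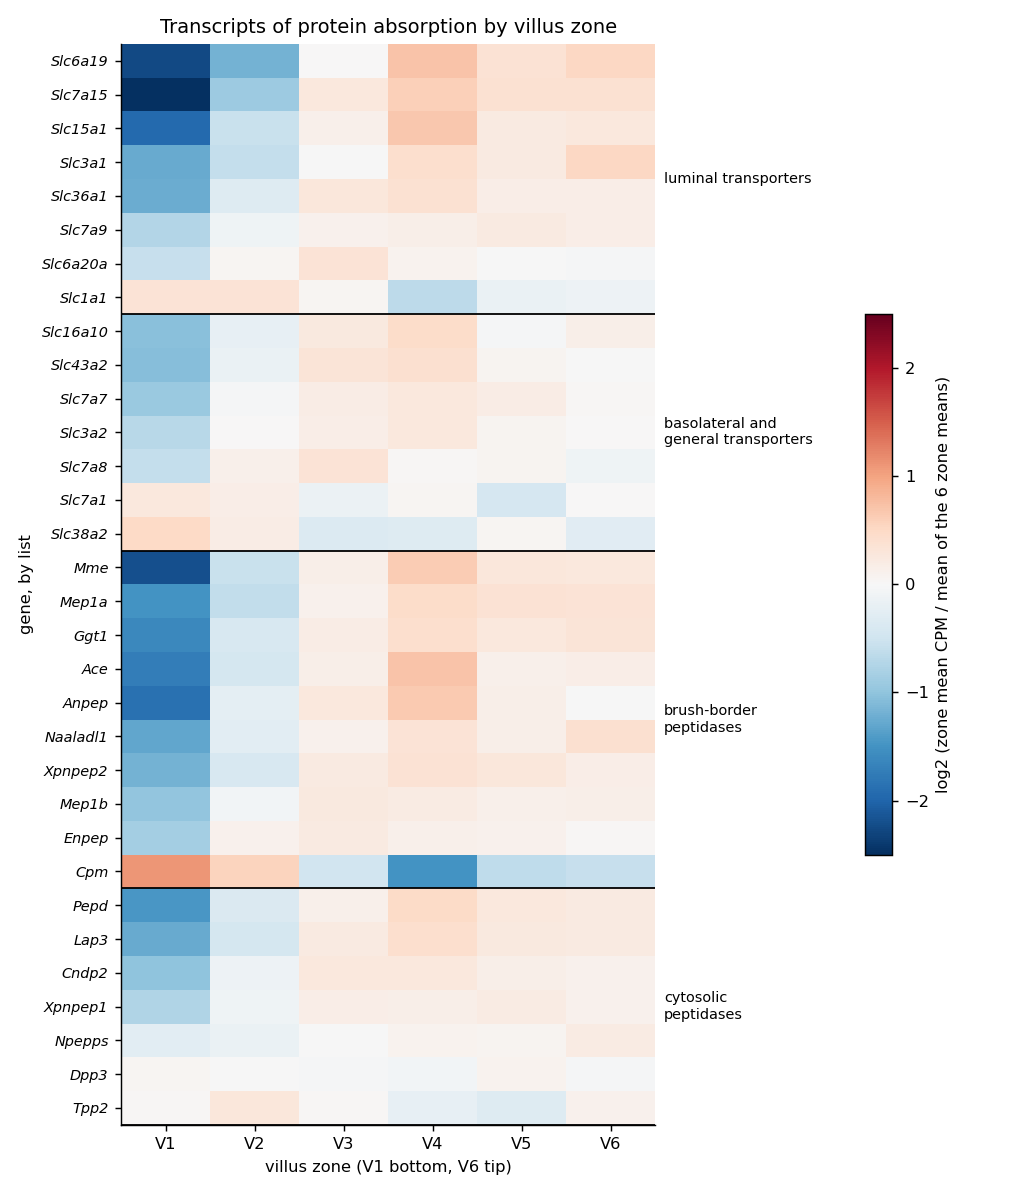
Zone mean over the mean of the 6 zones, in log2 (colour), for tested genes of 4 lists of protein absorption (rows) in zones V1 (bottom) to V6 (tip). Blue is below and red above the gene's own mean. V1 is the lowest zone for most rows, and the exceptions that start high include Slc1a1, Cpm and Slc38a2.

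For each member, the 3 genes of most like pattern were taken among 2491 genes averaging 50 CPM or more, by Pearson r of log2 CPM less the mouse mean over the 24 libraries. Libraries share depth, scaling and cell mixture, so r is a description without a test. Slc15a1 ran closest to lactase, Lct (r = 0.983), and to the peptidase Ace (0.982). Slc6a19 ran closest to Cyp3a11 (0.990) and Clca4b (0.989), and Slc3a1 to Sepp1 (0.985) and Clca4b (0.985), and Sepp1 was also among the nearest to Slc6a19 (0.986). Slc36a1 ran closest to the disaccharidase Mgam (0.972), Slc7a15 to Smpdl3b (0.989) and Slc7a9 to the triglyceride synthesis gene Dgat1 (0.973). For Slc6a20a the nearest were Slc37a4 (0.898) and the sodium pump subunit Atp1b1 (0.895), with lower r than for the 6 risers. For Slc1a1 the closest was the keratin gene Krt19 (0.798). Slc1a1 held 6 to 96 UMIs per library, and its zone means of 18.1 to 36.0 CPM lie below the 50 CPM asked of the candidates. Low counts limit precision, so this lower r does not show a distinct pattern. Among the members themselves, r was highest between Slc6a19 and Slc7a15 (0.971) and lowest between Slc6a19 and Slc1a1 (-0.62).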

How the data were processed

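UMI counts per gene, with no normalization, were used as deposited in 1 table of 24 libraries. The genome build (GRCm38) and the demultiplexer (bcl2fastq 2.15.0.4) are per the submitters' processing notes. No aligner or read filter is given in the sources used here. Of 17811 gene identifiers, 17741 were in GENCODE M21, and 131 had no count.

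Genes were filtered with edgeR 4.0.16 (filterByExpr, minimum count 10, minimum total 15; R 4.3.3), scaled by TMM, and tested with the quasi-likelihood test over all 24 libraries with zone as the factor (18 residual degrees of freedom, 15 with the mouse block). P-values were adjusted by Benjamini-Hochberg over 9328 genes, with a threshold of 0.05. The main fit had no mouse block. The 6 zones of a mouse come from 1 animal, so the numbers pair the libraries: same-mouse libraries deviated together (mean r 0.407, lowest 0.177, 60 of 60 pairs over 0.1), and 24 of 24 libraries correlated best with their own mouse. No same-zone libraries were copies (chi-square per degree of freedom 3.35 to 27.5 in 36 pairs). Replicates are the 4 mice.

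Pair ratios used log2 counts plus 0.5. DESeq2 1.42.0 and limma 3.58.1 were alternatives. Only the edgeR trend without the mouse block was also run on simulated data. Those data had no mouse effect, so they do not bear on the pairing or on the other fits. Genes named were the 8 members, up to 4 tested genes with the smallest adjusted p in the trend from each other list, and genes among the 3 nearest in pattern to each member. Cpm, Arl6ip5, Slc6a18 and Nt5e were named outside this rule, after their values were seen. The members and lists were chosen with earlier results of these data known. Some genes of the list of partner proteins are not reported here, so that list is not summarised. Promoters came from RefSeq. UMIs collapse duplicate reads, and low counts limit precision.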

Additional observations from a re-analysis of the deposited data

Results flagged for a closer look

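In 4 of 48 groups of 4 libraries (8 members by 6 zones), 1 library stood far from the other 3 relative to the range of the group, where chance gives about 1 in 20. Slc6a19 in V2 had 106 CPM in mouse 4, and the nearest other mouse had 89.3 CPM. In V6, mouse 1 stood apart for 3 genes. Slc7a9 was lowest there, at 278 CPM, with the next mouse at 309 CPM. Slc1a1 was lowest, at 17 CPM, with the next at 28.0 CPM, and its slope lost its call without that library. Slc7a15 was highest, at 99.2 CPM, with the next at 63.0 CPM.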

How the results depend on the processing

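The V3 to V6 fits, the V2 to V6 fit with the mouse block, and leaving out each single library (that of V1 replicate 2 was planned) were chosen after seeing the data. Among single genes, 2752 values kept their direction and call, 23 gained a call, 45 lost one and 3 reversed. The 3 reversals were Slc15a1 (-0.00538) and Slc36a1 (-0.0526) over V3 to V6 and Slc36a1 (-0.0472) with the block there.

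Genes called for the trend numbered 4189 (44.9% of 9328 tested), with 1692 at a mean of at least 50 CPM (62.6% of only 2702 tested), 1118 over V2 to V6 (members 4), 2703 there with the block, 224 over V3 to V6 (members 0) and 662 there with the block (member 1). For V6 minus V1 (3619) and V4 minus V1 (3403) the 50 CPM filter gave 1578 and 1551, again of fewer genes tested. Slc7a9, Slc36a1 and Slc1a1 were the members whose trend lost its call over V2 to V6. Of 28 member pairs, 17 differed over V2 to V6 and 23 to 26 under the other settings, against 25.

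Pairing by the mouse block gave 132 genes for V6 minus V4 (42 without it), 1392 and 7 members for V2 minus V1 (141 and 3), 447 and 5 for V3 minus V2 (27 and 2), 198 and 1 for V4 minus V3 (6 and 0) and 140 for V6 minus V5 (25). A block for the pool read from the index gave 131, 1614 and 7, 409 and 3, 180 and 1, and 134. DESeq2 gave 66, 309, 102, 55 with 1 member, and 41. The 50 CPM filter gave 20 for V6 minus V4, 50 for V3 minus V2 and 11 for V6 minus V5. No filter gave 65 for V6 minus V4 and 3 for V4 minus V3, and thinning to the smallest library gave 24 for V6 minus V4. With 2 zones alone, V2 minus V1 and V3 minus V2 had 0 genes and 0 members, V4 minus V3 had 2 genes and V6 minus V5 had 10. The cause was not tested.

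Leaving out a mouse gave 2803 to 3656 genes for the trend, 2240 to 3076 for V6 minus V1, 2235 to 2874 for V4 minus V1, 25 to 43 for V6 minus V4, 0 to 107 for V2 minus V1 (members 0 to 3), 0 to 18 for V3 minus V2 (0 to 2), 0 to 2 for V4 minus V3 and 13 to 26 for V6 minus V5. Leaving out a library gave 3619 to 4358, 2833 to 3714, 2370 to 3514, 27 to 49, 37 to 268 (members 2 to 4), 2 to 60 (1 to 2), 0 to 14 and 18 to 31, with 6 to 7 members for the trend and for V4 minus V1. Scaling by total UMIs moved the median of all genes to -0.34 in V6 minus V1. Low counts, 6 UMIs at the least for Slc1a1, limit that gene.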
